A study of Mus musculus with 8 samples.

Results

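Peaks of cross-linking and immunoprecipitation with sequencing (CLIP–seq) of Flag-MBD5 and Flag-MBD6 that began in the 5′ untranslated region (5′ UTR) of an mRNA were examined in mouse embryonic stem (mES) cells. A peak was taken when the position 15 nt inside its 5′ end lay, on the same strand, in a 5′ UTR of a protein-coding transcript and in no coding sequence (CDS) of the GENCODE vM21 annotation on genome build mm10. The rule uses position only and no measured level. It took 372 of the 29555 peaks of the 4 libraries, or 1.26% (95% Wilson interval 1.14% to 1.39%, counting error only). Overlapping peaks of the 4 libraries were merged into 181 sites in 173 genes, of which 166 had 1 site, 6 had 2 and 1 had 3. Of 3844 protein-coding genes with any peak beginning in CDS or a 5′ UTR, 4.5% had such a site.

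The series holds 8 samples in 4 groups of 2, which are CLIP and digested input for each protein. All samples are wild-type mES cells that stably overexpressed the human coding sequence of MBD5 or MBD6 with a Flag tag, delivered by lentivirus and kept under hygromycin B in a medium with LIF, CHIR99021 and PD0325901. The labels give the tissue as embryos and the cell line only as mESC, and they do not say whether the lines were clones. Both groups therefore carried the endogenous proteins besides the tagged human one, and cells without a tagged protein were not analysed here. The characteristics of the CLIP samples and the study's methods name a Flag antibody, whereas the labels' protocol for the extract names one against MBD6. Bound RNA was trimmed with RNase T1, which cleaves after G. The 4 input samples were not used here.

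MBD5 and MBD6 are methyl-CpG-binding-domain proteins that associate with PR-DUB, the complex of BAP1 and ASXL proteins that removes ubiquitin from histone H2A. The study asked which RNA these proteins hold in mES cells. The 5′ UTR is the stretch between the cap and the start codon, along which the small ribosomal subunit scans for the first suitable AUG, and it often holds upstream open reading frames and stable structure. Many mammalian 5′ UTRs lie in CpG islands and are rich in C and G.

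Where these peaks began is shown by the first 30 nt downstream of the 5′ end of chosen sites, read 5′ to 3′ from GENCODE vM21 transcript sequences and written with T for U. Coordinates are mm10. The sites with the best ranks of fold enrichment, those nearest to a transcript start and the best site of Tet1 included windows that already reached the start codon, and in the 5 shown here it stands in capitals.
Rbm8a, chr3:96629946-96629975, plus strand: cgccgagagaagcaagATGgcggacgtgct
Brix1, chr15:10485888-10485917, minus strand: cagcgaccgacgcggcgaggcgagATGgcg
Gtf2h2, chr13:100490123-100490152, minus strand: atatatatcattataagcaccATGgatgaa
Wbp11, chr6:136826056-136826085, minus strand: taaatcatataaattgtcaccATGggacga
Tet1, chr10:62880007-62880036, minus strand: catctttacttactctgcagccATGtctcg

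Tnrc6c, Jarid2 and Ankrd11, of the best-ranked sites, and Pabpc4, near a transcript start, are shown for their purine-rich windows, which other best-ranked sites such as Zdhhc5 did not share. In the following 4 windows, runs of 5 or more purines (A or G) stand in capitals, and none of these windows reached the start codon.
Tnrc6c, chr11:117700726-117700755, plus strand: gtAAAAGAAcAGGAAAcacAAGAAGAGGAA
Jarid2, chr13:44731723-44731752, plus strand: ttttGGGGGAAGAGGAAGAAAAGtcggatt
Ankrd11, chr8:122915993-122916022, minus strand: agcataaatGAAGAtcaagtAAGGGGAGGA
Pabpc4, chr4:123282934-123282963, plus strand: cAAAAGGGAAAAAAAGAAGAAAAAGAAcca

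Some other windows were rich in CpG. In the next 3 windows every CG stands in capitals. Ezr was among the best-ranked sites, whereas Asxl1 and Fmr1 are shown because their sequence was noticed after the values had been seen. Asxl1 encodes a PR-DUB subunit, and Fmr1 encodes an RNA-binding protein whose human counterpart has a CGG repeat in its 5′ UTR that expands in fragile X syndrome.
Ezr, chr17:6782685-6782714, minus strand: tCGcCGtCGcCGtCGcctcCGcCGtacagc
Asxl1, chr2:153346307-153346336, plus strand: cCGccacCGcCGcCGCGgaggaggaggatg
Fmr1, chrX:68678705-68678734, plus strand: CGgggggCGtgCGgtaaCGCGgCGgCGgCG

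The 2 windows below are shown in lower case only, since they bear on which RNA the reads came from, as described further on. The site annotated to Grcc10 lies in the gene of U7 small nuclear RNA, and that of Gm20594 resembles mitochondrial ribosomal RNA.
Grcc10, chr6:124741251-124741280, minus strand: tacagctcttttagaatttgtctagcaggt
Gm20594, chr6:79818179-79818208, plus strand: ttaaactgctgcagtatcctgaccgtgcaa

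Between 58 and 126 peaks per library began in 5′ UTRs. The Flag-MBD5 libraries had 68 of 5362 peaks (1.27%, 95% Wilson interval 1.00% to 1.60%) and 58 of 5388 (1.08%, 0.834% to 1.39%). The Flag-MBD6 libraries had 120 of 9218 (1.302%, 1.09% to 1.55%) and 126 of 9587 (1.31%, 1.11% to 1.56%). All 4 intervals overlapped. The mean share was 1.17% for Flag-MBD5 and 1.31% for Flag-MBD6, and the difference of 0.136 percentage points had a 95% Newcombe interval from −0.133 to 0.390. Library depth and reads at a summit were solved from the deposited folds and p-values and are estimates. Estimated reads numbered 478790 and 500143 with Flag-MBD5 and 983918 and 1111742 with Flag-MBD6. At the 31 sites found in all 4 libraries, replicates of a protein differed by less than sampling noise, with a chi-square per site of 0.334 for Flag-MBD5 and 0.539 for Flag-MBD6, where independent sampling gives a mean of 1. The libraries of a protein may therefore be technical replicates, although these sites were chosen for a peak in every library, which limits disagreement. Tests over the 4 libraries, given further on, take libraries as units and measure the spread between libraries only. Over 2 proteins the smallest p of the exact sign-flip permutation test would be 0.5. Values of both libraries are given, with no error, and the proteins were not tested against each other. Of 8 mES cell markers looked up, Sox2 and Zfp42 had a peak in each library, Sall4 in all but the first Flag-MBD5 library, and Pou5f1 and Nanog in each Flag-MBD6 library only. Esrrb had a peak in the first Flag-MBD6 library alone, Klf4 in the first Flag-MBD5 library alone, and Lin28a had none.

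The peaks lay close to the start codon rather than the cap. The 5′ ends of the 181 sites were a median of 79 nt upstream of the start codon (quartiles 32 and 180, range 16 to 1899) and a median of 197 nt from the annotated transcript start (quartiles 105 and 346). The lower limit of 16 nt is set by the rule. Within 50 nt of the start codon began 68 sites, or 37.6% (95% Wilson interval 30.8% to 44.8%), and within 100 nt 103 sites, or 56.9% (49.6% to 63.9%). By contrast, 18 sites (9.94%, 6.38% to 15.2%) began within 50 nt of the transcript start. When each 5′ UTR was split into 3 equal parts, the part next to the start codon held 94 sites, the middle part 60 and the part next to the cap 27. The start codon lay inside the first 30 nt at 31 sites, and a peak covered it at 113 (62.4%, 55.2% to 69.2%). With the position taken 5 nt or 30 nt inside the 5′ end, the median distance to the start codon was 53.5 and 112 nt.

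The density of 5′ ends rose steeply at the start codon. Over 3841 genes with a peak, 5′ ends fell at 0.532 per kb of 5′ UTR and at 2.48 per kb of CDS, summed over the 4 libraries, a ratio of 4.66. This count takes each 5′ end itself, so it includes 5′ ends in the last bases of the 5′ UTR whose inner position is already in CDS. From 500 to 51 nt upstream of the start codon the density was between 0.0806 and 0.356 per kb in bins of 50 nt. It was 1.62 per kb in the last 50 nt of the 5′ UTR and 3.72 per kb in the first 50 nt of CDS. In bins of 10 nt it was 0.670 per kb from 50 to 41 nt upstream, 1.81 from 30 to 21 nt, 1.43 from 20 to 11 nt, 3.04 in the last 10 nt and 3.98 in the first 10 nt of CDS. The plot of 5′ ends around the start codon shows the same step in each library.

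**Figure D1:**
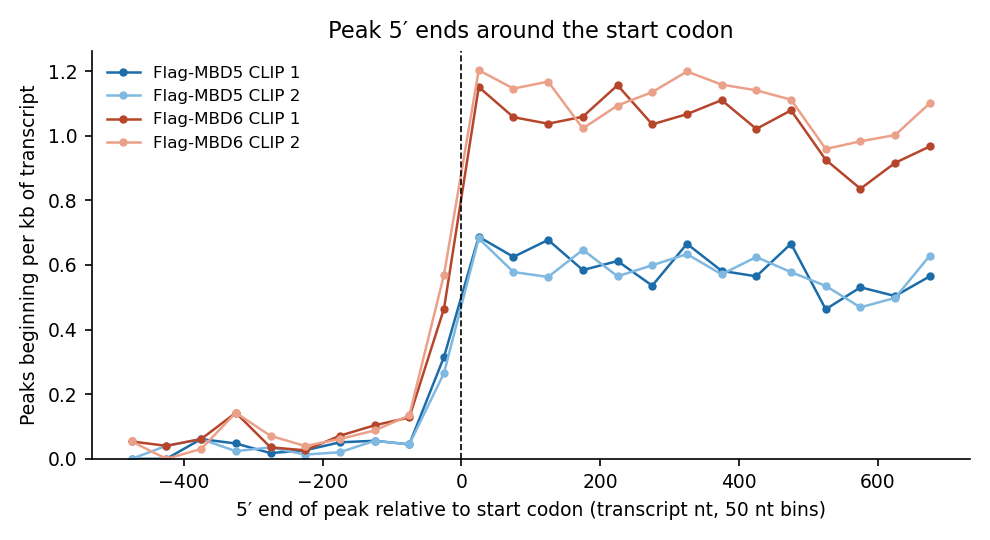
Density of peak 5′ ends, in peaks per kb of transcript, against the distance from the start codon in bins of 50 nt, for the 4 CLIP libraries; each point is 1 bin of 1 library, and the dashed line is the start codon. In the last bin of the 5′ UTR the values are 0.316 and 0.266 per kb for Flag-MBD5 and 0.465 and 0.570 per kb for Flag-MBD6, and in the first bin of the CDS they are 0.687, 0.682, 1.15 and 1.203 per kb in the same order.

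**Figure D2:**
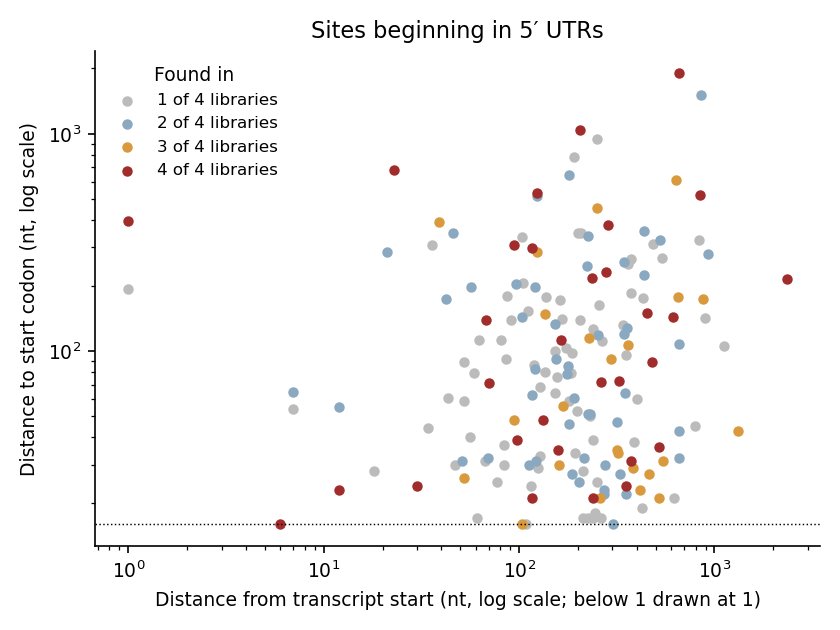
Each point is 1 of the 181 sites, placed by its distance from the annotated transcript start (horizontal, nt, log scale) and its distance to the start codon (vertical, nt, log scale), and coloured by the number of libraries that hold it, with the site of Ccnb1ip1, at −3 nt from the transcript start, drawn at 1 nt. The dotted line marks 16 nt, the smallest distance the rule allows, and the sites of all 4 libraries lie among the others.

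Along the gene, 117 sites (64.6%) began in the first exon of the transcript, and an intron separated 42 (23.2%) from the start codon. Reads were extended to 150 bp before peaks were called, without regard to splicing. The 3′ end of the peak with the lowest p at a site lay in an intron at 91 sites, or 50.3%, and its midpoint lay in CDS at 72 sites, in the 5′ UTR at 72 and in an intron at 31. Assigning these peaks by the midpoint would thus leave 39.8% of them in the 5′ UTR. Inside an upstream open reading frame began 54 sites, or 29.8% (95% Wilson interval 23.6% to 36.9%). Of all positions of the same 5′ UTRs, 28.8% lay in such a frame, a share inside that interval.

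Of the 181 sites, 76 were found in 1 library, 50 in 2, 24 in 3 and 31 in all 4 (17.1%, 95% Wilson interval 12.3% to 23.3%). When a peak of any class at the same place was allowed, 47 sites (26.0%, 20.1% to 32.8%) had a peak in all 4 libraries. Over all 12074 merged regions of the series this share was 29.5%. Of the 83 sites with a Flag-MBD5 peak, 65 also had a Flag-MBD6 peak (78.3%, 68.3% to 85.8%). These 65 made up 39.9% (32.7% to 47.5%) of the 163 sites with a Flag-MBD6 peak. Both shares count only peaks that begin in a 5′ UTR and leave out overlapping peaks of another class. They were not counted over all merged regions. Without the first Flag-MBD6 library the share of Flag-MBD5 sites with a Flag-MBD6 peak was 63.9%. At the 31 sites of all 4 libraries, the 5′ ends of the 4 libraries spanned a median of 8 nt (range 0 to 51) and lay within 10 nt of each other at 19.

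The overlap between libraries was compared with that of peaks beginning in CDS. Of the 5′ UTR peaks, 70.6% and 82.8% of the Flag-MBD5 libraries and 76.7% and 69.8% of the Flag-MBD6 libraries overlapped a peak of the other replicate. Over all peaks these shares were 75.2% for Flag-MBD5 and 80.2% for Flag-MBD6. Within libraries the difference from peaks beginning in CDS was −4.72, 8.74, −5.79 and −9.20 percentage points, so that the second Flag-MBD5 library went against the other 3. The mean difference was −2.74 points (exact sign-flip permutation test over 4 libraries, two-sided p = 0.5), and it was 2.01 points with 1 Flag-MBD6 library left out, which leaves only the Flag-MBD5 pair. A peak of the other protein overlapped 85.3% and 89.7% of the Flag-MBD5 peaks and 54.2% and 44.4% of the Flag-MBD6 peaks, beside 90.3% and 57.3% of all peaks. This share was lower than in CDS in all 4 libraries, with a mean difference of −5.69 points (exact sign-flip permutation test, p = 0.125; 0.25 with fold enrichments of at least 4 only). With 4 libraries 0.125 is the smallest p that this test can give, so none of these comparisons can pass 0.05.

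Median fold enrichment was slightly lower, and summit reads higher, than for peaks in CDS. The median fold enrichment of 5′ UTR peaks was 9.98 and 10.4 with Flag-MBD5 and 9.97 and 9.84 with Flag-MBD6. For peaks beginning in CDS it was 10.4, 10.5, 11.2 and 11.3 in the same order. The mean difference of the medians was −0.11 on the log2 scale, lower in 4 of 4 libraries (exact sign-flip permutation test, p = 0.125). With fold enrichments of at least 4 only, it was −0.063 (exact sign-flip permutation test, p = 0.5), and at 5 nt inside the 5′ end −0.038 (p = 0.625 by the same permutation test). The median number of reads at the summit was 19.5 and 22.5 with Flag-MBD5 and 23 and 22 with Flag-MBD6, and the lowest was 7 or 8 in each. For peaks beginning in CDS the median was 15, 16, 20 and 21 reads, lower in all 4 libraries. Median widths were 166, 174, 167 and 161 bp, and they differed from CDS by a mean of 1.38 bp (exact sign-flip permutation test, p = 0.75).

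The best-ranked sites of all 4 libraries came from genes with varied roles. Fold enrichment, the deposited ratio of the summit signal to the local background, was 18.3, 25.9, 37.2 and 35.5 at Tnrc6c, which encodes a scaffold of microRNA-mediated silencing. Here and in what follows, 4 values stand for the first and second Flag-MBD5 and the first and second Flag-MBD6 library. Both Flag-MBD6 values at Tnrc6c were above both Flag-MBD5 values. Jarid2, a cofactor of Polycomb repressive complex PRC2, had 12.8, 28.4, 44.1 and 26.7, and the values of the proteins overlapped.

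Rbm8a, a core protein of the exon junction complex, had fold enrichments of 23.1, 18.3, 19.2 and 17.2 with a peak that began 6 nt from the transcript start and 16 nt before the start codon. Its annotated 5′ UTR is 22 nt long. Its first 30 nt also occur in Rbm8a2 transcripts. Brix1, a factor of large ribosomal subunit assembly, had 15.2, 15.0, 23.6 and 18.8, again with both Flag-MBD6 values higher. The values at Gtf2h2, a subunit of transcription factor TFIIH, were 12.8, 14.2, 25.6 and 32.0. Wbp11, a splicing factor, had 15.95, 15.8, 21.7 and 16.3, and its 5′ ends were at the same base in all 4 libraries. The window of Wbp11 is AT-rich and that of Brix1 holds 7 CG, although both begin shortly before the start codon.

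Further from the start codon, Zdhhc5, a palmitoyltransferase, had fold enrichments of 11.96, 12.6, 19.7 and 21.3 at a site 1044 nt upstream of the start codon in a 5′ UTR of 1249 nt. Ankrd11, a chromatin regulator with ankyrin repeats, had 14.4, 16.2, 17.7 and 14.9. Ezr, which links the membrane to actin, had 15.8, 23.7, 13.7 and 15.7. The values of the proteins overlapped at Ankrd11 and Ezr but not at Zdhhc5. Near the cap, Pabpc4, a cytoplasmic poly(A)-binding protein, began 23 nt from the transcript start and 681 nt from the start codon, with 8.31, 9.10, 7.75 and 6.07. Its purine-rich window also occurs in transcripts of Gm10110.

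**Figure D3:**
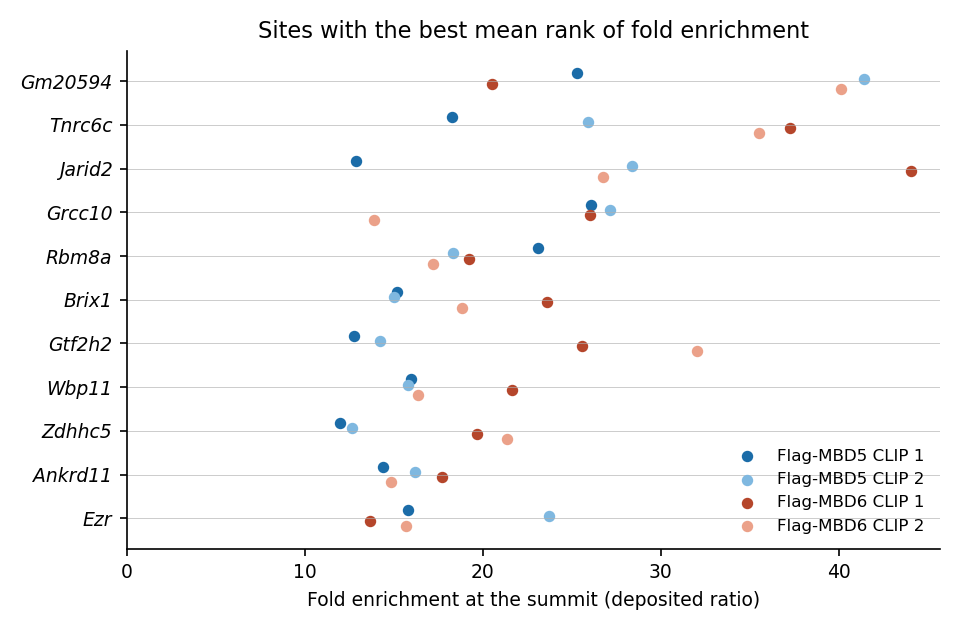
Deposited fold enrichment at the summit (horizontal axis, ratio, from 0) for 11 of the 12 sites of all 4 libraries with the best mean rank, 1 row per gene and 1 point per library. The 2 libraries of a protein can lie far apart, as at Jarid2 (12.8 and 28.4 for Flag-MBD5), and both Flag-MBD6 values lie above both Flag-MBD5 values at Tnrc6c, Brix1, Gtf2h2, Wbp11 and Zdhhc5.

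Over the 31 sites of all 4 libraries, both Flag-MBD6 folds were above both Flag-MBD5 folds at 11 (35.5%), beside 55.7% of all 3566 regions found in all 4 libraries, and below them at 7 (22.6%), beside 10.5%. Depth and protein cannot be told apart in these folds. Scaled by the estimated depth, summit reads had log2 ratios of Flag-MBD6 to Flag-MBD5 of −0.23 at Tnrc6c and −0.26 at Brix1. The ratio was −0.50 at Wbp11, −0.0018 at Zdhhc5 and 0.36 at Gtf2h2, with a limit given further on.

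The best mean rank belonged to Gm20594, a single-exon predicted gene, with fold enrichments of 25.3, 41.4, 20.5 and 40.1 and 65, 59, 70 and 72 summit reads. The first 30 nt of this site match mt-Rnr2, the mitochondrial 16S ribosomal RNA, at 26 of 30 positions, more than any other site's. Each library also had 1 peak on the mitochondrial chromosome that covered mt-Rnr2. Per the study's methods, reads of ribosomal RNA were removed. The alignment allowed fewer mismatches per read than the 4 by which this window differs from mt-Rnr2. It reported only places with the fewest mismatches, and it allowed reads with several equally good places. Whether the reads at Gm20594 came from mt-Rnr2 was not tested. Over all sites with a full window, the first 30 nt of 172 of 179 (96.1%) were in no transcript of another gene, small RNAs at the same place aside. The other 7 included Rbm8a and Pabpc4, whose reads cannot be told apart by these windows from reads of the genes that share them.

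A group of 7 sites lay inside annotated small RNAs, and all 7 were found in all 4 libraries. They made up 28 member peaks, or 7.53%, beside 5.07% of all peaks. Ccnb1ip1 had the most summit reads of these, with 141, 146, 162 and 177, at a site that coincides with Rpph1, the RNA of RNase P. The site of Grcc10 lay in Rnu7, the U7 small nuclear RNA that acts in 3′ end processing of histone mRNA, and had 42, 45, 46 and 43 reads with fold enrichments of 26.1, 27.2, 26.0 and 13.9. The site of Rpl32, a ribosomal protein gene, lay in the small nucleolar RNA Snora7a (42, 39, 61 and 68 reads). Those of 2410002F23Rik, the gene with the most sites, all lay in small nucleolar RNAs, which include Snord88a (52, 44, 63 and 61 reads). At Ddx39b, an RNA helicase of mRNA export, 1 site lay in a small nucleolar RNA (23, 23, 23 and 29 reads), and the other, 43 nt before the start codon, had 54 reads in the first Flag-MBD5 library and 88 and 87 with Flag-MBD6. At these 7 places the mRNA and the small RNA cannot be told apart from peak positions. Without them, 24 sites of all 4 libraries are left.

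Counting only peaks that begin in a 5′ UTR, 116 of the 181 sites (64.1%, 95% Wilson interval 56.9% to 70.7%) had peaks of 1 protein only. These were 98 sites of Flag-MBD6 and 18 of Flag-MBD5. Overlapping peaks that began elsewhere are left out of this count. The same share over all merged regions was not counted, so it cannot be read as a trait of these sites. Both Flag-MBD6 libraries and neither Flag-MBD5 library held 37 sites, and the reverse held for 3. At 3 of the 37 and 1 of the 3, a peak of the other protein overlapped but began elsewhere. This leaves 34 sites (18.8%) with both Flag-MBD6 and 2 (1.10%) with both Flag-MBD5 libraries and no peak of the other protein. Over all merged regions the same held for 20.6% and 1.28%, both inside the Wilson intervals of the sites (13.8% to 25.1% and 0.304% to 3.94%). The site of Tet1, a dioxygenase of 5-methylcytosine in DNA, had 123 and 154 reads in the Flag-MBD6 libraries and began 22 nt before the start codon. The Flag-MBD5 libraries had a peak at Tet1 with 47 and 64 reads that began 62 and 59 nt further downstream, in CDS. At Mettl6, a tRNA methyltransferase, the Flag-MBD6 peaks had 28 and 27 reads, and the Flag-MBD5 peaks began 43 and 36 nt downstream in CDS with 10 and 11 reads. Tbp, the TATA-binding protein, had 27 and 30 reads in the Flag-MBD6 libraries and no overlapping Flag-MBD5 peak. The read numbers at Tet1, Mettl6 and Tbp are not scaled by depth, which was estimated as 2.14 times higher in the Flag-MBD6 libraries.

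The 3 sites of Flag-MBD5 alone had low fold enrichments. Cd81, a tetraspanin, had fold enrichments of 9.06 and 3.68 in the Flag-MBD5 libraries. Scd1, a fatty acid desaturase, had 4.67 and 7.96, and Rnf10, a RING finger protein, had 6.73 and 5.73. At Rnf10 a peak of the second Flag-MBD6 library began 161 nt downstream in CDS. Of 352 pairs of a site and a library without a member peak, 41 had an overlapping peak of another class, which began in CDS in 39. The Flag-MBD6 libraries were estimated at 2.14 times the depth of the Flag-MBD5 libraries, and depth and protein cannot be told apart in these counts.

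At the 31 sites of all 4 libraries, summit reads scaled by the estimated depth (RPM) were lower for Flag-MBD6. A site enters here only with a called peak in every library, and peaks had at least 7 reads. The same read number is a higher RPM in the shallower Flag-MBD5 libraries. This selection can itself lower the ratio, and its share in the values was not tested. The median log2 ratio of Flag-MBD6 to Flag-MBD5 was −0.57 (range −1.08 to 0.44), and it was below 0 at 28 sites. The median over all 3566 regions of all 4 libraries was −0.34, and 8 of the 31 sites lay above it. Relative to that median, the sites were at −0.24. Ezr was the lowest at −1.08, followed by Grcc10 at −1.06 and Calr, an endoplasmic reticulum chaperone, at −1.03. Atn1, which encodes a transcriptional corepressor, was the highest at 0.44, with 10 reads per Flag-MBD5 library against 28 and 30 with Flag-MBD6, and Gtf2h2 followed at 0.36. The Atn1 site also lies in an exon of Gm45234. Outside small RNAs the median over 24 sites was −0.53. The median was −0.43 without the first Flag-MBD5 library and −0.71 without the first Flag-MBD6 library. The plot of RPM values shows most sites under the line of equal values.

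**Figure D4:**
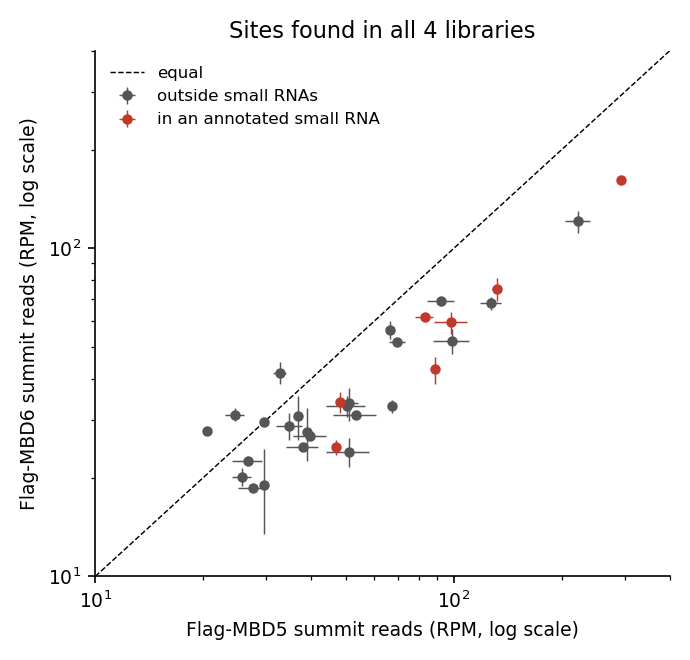
Summit reads in RPM for Flag-MBD5 (horizontal, log scale) and Flag-MBD6 (vertical, log scale) at the 31 sites of all 4 libraries. Points are means of 2 libraries, bars span both libraries, red points are the 7 sites inside annotated small RNAs and the dashed line marks equal values; 28 sites lie below it.

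The windows held more adenine than their 5′ UTRs and less than CDS peaks. Over the first 30 nt of the 179 sites with a full window, A made up 30.6%, C 27.6%, G 25.01% and U 16.8%. In every window of the same 5′ UTRs the shares were 21.7%, 28.5%, 28.4% and 21.4%, and over peaks beginning in CDS A made up 38.4% and C 20.7%. Per library, A made up 26.7% and 28.0% with Flag-MBD5 and 31.9% and 33.2% with Flag-MBD6, so the values of the proteins did not overlap. In peaks beginning in CDS the values, 37.6% and 38.1% with Flag-MBD5 and 38.8% and 38.7% with Flag-MBD6, did not overlap either. Depth and protein cannot be told apart in these shares. The difference from CDS was −8.35 percentage points for A and 6.41 for C, each with the same sign in 4 of 4 libraries (exact sign-flip permutation test, p = 0.125 for both). In windows that end before the start codon, an alternative chosen after the data were seen, A made up 29.9%. In sites outside annotated small RNAs it made up 30.9%.

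**Figure D5:**
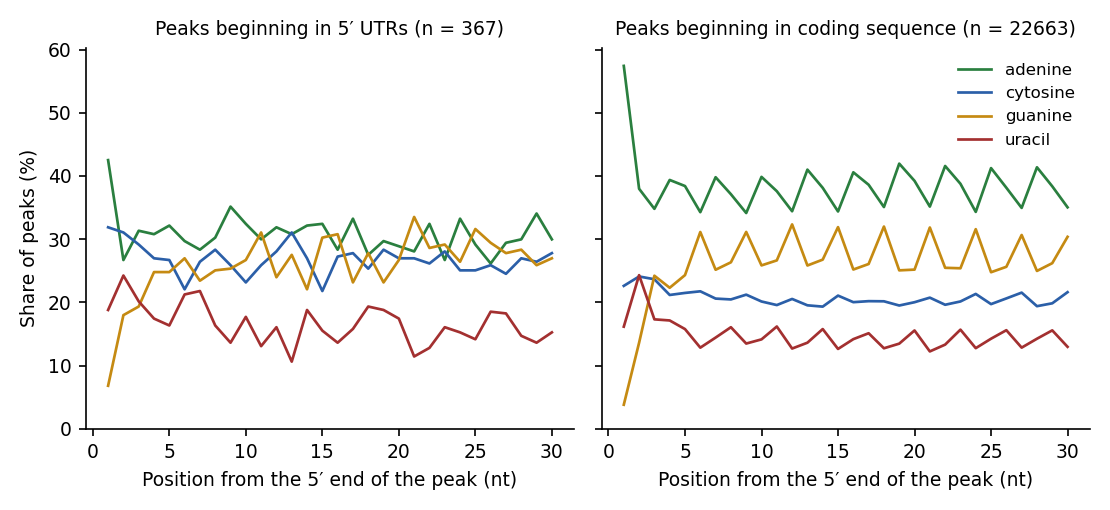
Share of peaks with each base (vertical axis, %, from 0) at positions 1 to 30 from the 5′ end of the peak, for the 367 peaks beginning in 5′ UTRs with a full window (left) and 22663 peaks beginning in CDS (right), 4 libraries pooled. Adenine is at 42.5% at position 1 on the left and at 57.4% on the right, and guanine is at 6.81% and 3.81% there.

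Short purine words were more frequent at the sites than over all windows of their 5′ UTRs, and more frequent still in CDS peaks. GAAG, searched on the transcript strand, occurred in 49.2% of the windows (95% Wilson interval 41.9% to 56.4%; 50.9% outside small RNAs), in 18.5% of every window of the same 5′ UTRs and in 62.0% of windows of CDS peaks. AAGA, which can overlap GAAG, occurred in 46.4%, 15.9% and 65.3%. Both are visible in the windows of Tnrc6c and Pabpc4 printed above. ATG occurred in 24.6% of the windows and in 19.7% of every window of the same 5′ UTRs (interval of the former 18.9% to 31.4%). CG occurred in 68.2% and 68.0%, GGCGG in 3.35% and 7.31%, and CGCCG in 5.59% and 7.16%. Sites with a Flag-MBD5 peak had A at 27.4% and GAAG in 37.8% (28.1% to 48.6%), and sites with Flag-MBD6 peaks only had A at 33.2% and GAAG in 58.8% (48.8% to 68.0%). The windows in small RNAs, none with GAAG, all belong to the former set. The Flag-MBD6 libraries were deeper, and depth and protein cannot be told apart in this comparison.

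CpG was less depleted than in CDS. The ratio of observed to expected CpG, from the C and G of the windows, was 0.909 and 0.890 with Flag-MBD5 and 0.839 and 0.827 with Flag-MBD6. Peaks in CDS had 0.631, 0.622, 0.594 and 0.593, and the mean difference of 0.256 had the same sign in 4 of 4 libraries (exact sign-flip permutation test, p = 0.125). Over the sites the ratio was 0.835, and over every window of the same 5′ UTRs it was 0.798. The sites thus had about the CpG content of the 5′ UTRs they lie in.

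The base just before the 5′ end was G at 72.6% of the sites and C at 17.3%, whereas G stood before 28.7% of all positions of the same 5′ UTRs. Over peaks beginning in CDS or a 5′ UTR together, G stood there in 77.2%. RNase T1, used in the experiment, cleaves after G. Per library G stood before 75%, 71.9%, 70.3% and 73.4% of the 5′ UTR peaks, a mean difference from CDS of −5.95 percentage points (exact sign-flip permutation test, p = 0.125). The differences were −8.48, −11.4, −3.90 and −0.020 points, so the second Flag-MBD6 library hardly differed. In peaks beginning in CDS the shares were 83.5%, 83.3%, 74.2% and 73.4%, so libraries differed more there than in 5′ UTR peaks. The same sign in all 4 libraries was lost under 5 alternatives, among them 5 nt and 30 nt inside the 5′ end (exact sign-flip permutation test, p = 0.25 in each). Windows of the same 5′ UTRs that follow a G held A at 20.8%.

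By distance, sites 16 to 50 nt from the start codon held A at 32.2% (67 windows), those at 51 to 200 nt at 26.8% (72 windows) and those further away at 34.7% (40 windows, 6 in small RNAs). GAAG occurred in 50.7%, 44.4% and 55.0% of these. The share of sites found in all 4 libraries was 16.4%, 11.1% and 27.5%. Of the 11 such sites in the last group, 6 lay in small RNAs, and the nearer groups held none of these.

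Gene lists were counted over their members with a peak, to be read beside the 4.5% of all genes with a peak beginning in CDS or a 5′ UTR. The lists were planned to count a peak beginning in any exon, so the denominators can differ. Transcript abundance was not taken into account. Of 53 cytoplasmic ribosomal protein genes with a peak, 2 had a site (3.77%), Rpl32 and Rps20, and that of Rpl32 lay in Snora7a. Of 16 other mRNAs with a 5′ terminal oligopyrimidine tract that had a peak, 5 had one (31.3%). They were Eef1a1, Eef2, Hnrnpa1, Npm1 and Pabpc1, none of them found in all 4 libraries. Eef1a1, a translation elongation factor, had fold enrichments of 34.3 and 42.8 in the Flag-MBD5 libraries and 24.1 in the first Flag-MBD6 library, 16 nt before the start codon. In the second Flag-MBD6 library the Eef1a1 peak began 1 nt downstream, had 93 reads and was assigned to CDS. Initiation factors had a site in 2 of 32 genes with a peak (6.25%), Eif4g2 and Eif5b, and genes known for upstream open reading frames or non-AUG starts in 1 of 10, again Eif4g2.

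Of 6 listed genes with an iron-responsive element, a hairpin bound by iron regulatory proteins, 3 had a peak and the ferritin genes Fth1 and Ftl1 had a site. Fth1 began 168 nt from the transcript start and 56 nt from the start codon, with 30, 22 and 23 reads in 3 libraries, and Ftl1 began 175 nt from the transcript start. Of the listed genes of RNA 5-methylcytosine, Fmr1 (14, 15, 24 and 15 reads) and Nsun2 had a site, 2 of 9 with a peak (22.2%). Of 7 genes of PR-DUB and its partners with a peak, 2 had a site (28.6%). Asxl1 had 24 reads in the first Flag-MBD5 library and 46 and 43 with Flag-MBD6, and Mbd5 had 15 reads in the second Flag-MBD6 library. The transgenes hold only the coding sequence, so the Mbd5 site lies in the endogenous mouse gene.

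Of 9 genes of the TET and DNA methylation list with a peak, Tet1 had a site (11.1%). Pluripotency factors had a site in 3 of 18 genes with a peak (16.7%), Dppa5a, Tdgf1 and Zfp42. At Zfp42, a pluripotency marker, the site 23 nt before the start codon had 46 reads in the second Flag-MBD5 library and 93 and 99 with Flag-MBD6. The first Flag-MBD5 library had a Zfp42 peak with 38 reads that began 26 nt downstream. Chaperones had a site in 2 of 28 genes with a peak (7.14%), Calr and P4hb. Calr had 32, 34, 34 and 35 reads. Splicing and RNA-binding factors had one in 3 of 41 with a peak (7.32%), and Pcbp1, a poly(C)-binding protein, had 115, 102, 128 and 124 reads at a site 31 nt before the start codon. The lists were chosen with results of these data known, most hold few genes, and these counts are descriptions.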

How the data were processed

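Peak lists of the 4 CLIP libraries were analysed. Per the study's methods and the submitters' processing notes, the authors clipped, quality-filtered and collapsed the reads, discarded those of ribosomal RNA, aligned the remaining ones unspliced to mm10 with Bowtie 1.0.0, split them by strand with SAMtools 1.16.1 and called peaks for each library with MACS2 (version 2, q < 0.01, extension 150 bp). The deposited score is a whole number that follows −log10 q, the deposited fold enrichment is a ratio to the local background, the deposited −log10 p and −log10 q describe the peak and the deposited summit is another column of positions.

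Peaks were assigned to GENCODE vM21 with Python 3.11.15, pandas 2.3.3, NumPy 2.4.6 and SciPy 1.17.1. The basic, best-supported transcript was preferred. Where no read totals were used, summit reads were solved from fold and p, and library depth from the lowest background rate, with the 1.3e+08 bp genome size; these are estimates. An overlap of 1 bp counted. The steps were tested on simulated transcripts and peaks. Differences from CDS peaks were tested within libraries by an exact two-sided sign-flip permutation test over 4 libraries, which measures only the spread between libraries that may be technical replicates. Wilson intervals are at 95% and cover counting error only.

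Sites were named by a rule: among sites of all 4 libraries, the 12 best by mean rank of fold enrichment, the 4 nearest to a transcript start, the 4 farthest from a start codon and up to 4 of each gene list; the 3 highest of each protein alone; and the 3 genes with the most sites. Sites on chromosome 18 (5 sites, 11 peaks) are counted but not named. The values of 2 other sites that the rule names are not reported here. Other genes of the lists, Atn1 and the printed windows of Asxl1 and Fmr1 were chosen after their values were seen. The members, lists and tests were chosen with earlier results of these data known. Alternatives covered thresholds, the inner position, transcripts, overlap, window, scaling, equal numbers of peaks, a replicate block and the omission of single libraries.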

Additional observations from a re-analysis of the deposited data

How the results depend on the processing

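Of the values under alternatives that kept all libraries, 131 were counted as staying with the reported value and 18 were not. A difference from CDS peaks counted as staying when it kept its sign, as 65 of 67 did. For numbers of sites the tolerance was wide, and for other values it was an interval around the reported value. Values counted as staying were therefore not all close to the reported ones. At 30 nt inside the 5′ end there were 145 sites, beside 181, and 23 in all 4 libraries, beside 31. At 5 nt there were 218 sites, and the difference in median log2 fold was −0.038, beside −0.11. The inner position moved most: at 5 nt and at 30 nt inside the 5′ end the Flag-MBD5 shares were 1.44% and 0.875%, the Flag-MBD6 shares 1.55% and 1.01%, the median distance to the start codon was 53.5 and 112 nt, and the start codon was in the window at 30.7% and 0% of sites, the last by construction. Equal numbers of peaks per library gave 118 sites, a median distance of 67.5 nt and 59.0% of Flag-MBD5 sites with a Flag-MBD6 peak. The transcript with the longest 5′ UTR gave 86 nt to the start codon and 239 nt from the transcript start. Windows of 20 and 50 nt held the start codon at 4.97% and 35.9% of sites. Scaling to all regions gave −0.24 for log2 reads. The width difference turned to −0.50 bp at 30 nt and −1.25 bp with equal numbers. The cause of these moves was not tested.

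With 1 library left out, the width difference ran from −1.33 (without the second Flag-MBD5 library) to 4.17 bp, the difference in replicate overlap from −7.49 to 2.01 points (positive without either Flag-MBD6 library), log2 reads from −0.71 to −0.43, the median distance to the start codon from 77 to 83 nt, the share of Flag-MBD5 sites with a Flag-MBD6 peak from 63.9% (without the first Flag-MBD6 library) to 84.5%, and the number of sites from 145 to 175. The labels give the groups the same replicate numbers but no shared batch, and deviations of same-numbered libraries correlated at 0.042 over 31 sites. With the replicate block the share difference was 0.136 points, the same by construction, and the log2 reads were −0.57. Depth limits the sites: a member peak had at least 7 reads, so absence from a Flag-MBD5 library is not absence of binding.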
